A study of Mus musculus with 18 samples.

Results

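The disallowed genes of beta cells are genes that most tissues express and that adult pancreatic beta cells keep at low levels. Described here are 8 of them, namely Slc16a1, Acot7, Oat, Igfbp4, Smad3, Mgst1, Zfp36l1 and Pdgfra, out of 22180 genes that had a transcript cluster of their own on the array. They were taken by name, and each was read from its own cluster, with the highest mean where a gene had several. All 8 were found. The islets were hand-picked from C57BL/KsJ db/db mice, which lack the long leptin receptor, from C57BL/6J ob/ob mice, which lack leptin, and from lean control mice of each strain (here lean KsJ and lean 6J), all at 6 and at 16 weeks of age. The labels do not give the genotype of the lean controls at the leptin locus, the sex of the mice, or whether an array is 1 mouse or a pool. Total RNA was hybridised to Affymetrix Mouse Gene ST arrays, and 16 arrays formed 8 groups of 2. A further lean KsJ array and a further db/db array of 16 weeks, each called replicate 3, came from a different array design in a separate table and were not part of the tests. Replicates are samples the labels put in the same group, so p-values measure only the spread between these samples, which may be technical.

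Beta cells adjust insulin release to glucose by oxidising pyruvate in their mitochondria, and the disallowed genes include some whose products would interfere with that coupling. Slc16a1, which encodes the lactate and pyruvate transporter MCT1, is the best known: its expression in beta cells lets circulating pyruvate trigger insulin release, as in exercise-induced hyperinsulinism. Silencing of this group is attributed in the field to histone marks, DNA methylation and microRNAs. Islets also hold alpha, delta, endothelial, stromal and immune cells, many of which express these genes. In whole-islet RNA a change in the number of cells of a type and a change in RNA per cell cannot be told apart.

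The promoters of Igfbp4, Oat and Pdgfra are shown because these are the members whose db/db arrays all lay above the lean KsJ arrays at 16 weeks. Each window covers 250 bases before and 50 after the start of the gene in RefSeq on GRCm38.p6, read 5′ to 3′ on the strand of the gene, and capitals mark CpG dinucleotides, the sites of DNA methylation. The windows are chr11:99040994-99041293 on the plus strand for Igfbp4, chr7:132576349-132576648 on the minus strand for Oat, and chr5:75152001-75152300 on the plus strand for Pdgfra.
Igfbp4: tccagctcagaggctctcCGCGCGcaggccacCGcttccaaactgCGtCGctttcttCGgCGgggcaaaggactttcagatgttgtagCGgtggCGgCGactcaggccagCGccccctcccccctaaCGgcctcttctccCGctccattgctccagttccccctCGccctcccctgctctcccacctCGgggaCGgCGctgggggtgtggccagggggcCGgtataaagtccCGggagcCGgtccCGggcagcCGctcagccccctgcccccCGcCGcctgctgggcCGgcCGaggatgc
Oat: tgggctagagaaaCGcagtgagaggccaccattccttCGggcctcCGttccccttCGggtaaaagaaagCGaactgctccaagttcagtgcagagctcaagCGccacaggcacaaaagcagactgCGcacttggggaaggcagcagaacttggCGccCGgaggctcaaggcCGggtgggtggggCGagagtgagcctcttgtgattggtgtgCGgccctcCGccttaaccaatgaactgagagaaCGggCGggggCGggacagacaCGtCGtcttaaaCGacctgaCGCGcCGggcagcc
Pdgfra: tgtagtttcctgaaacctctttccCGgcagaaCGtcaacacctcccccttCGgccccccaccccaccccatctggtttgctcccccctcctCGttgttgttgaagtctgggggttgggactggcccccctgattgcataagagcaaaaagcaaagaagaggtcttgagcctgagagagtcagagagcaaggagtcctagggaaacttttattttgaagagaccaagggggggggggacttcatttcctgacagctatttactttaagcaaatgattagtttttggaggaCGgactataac
The Igfbp4 window held 27 CpG dinucleotides and the Oat window 22, against a median of 7 over 32851 promoter windows of the same length. The Pdgfra window held 5, fewer than that median. Among the other members, all 8 being matched in RefSeq, Slc16a1 had 42 CpG dinucleotides, Smad3 25, Zfp36l1 15 and Acot7 6, and Mgst1 had 13 and 1 in 2 windows of separate start sites. The SMAD-binding letters CAGAC, searched on both strands, occurred 3 times in the Acot7 window, 2 times in the Oat window and 1 time each in the Slc16a1 and Pdgfra windows. They were not found in the windows of Igfbp4, Smad3, Mgst1 and Zfp36l1, and 49.6% of all windows hold them. Methylation and SMAD binding were not measured.

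The values are log2 signals, so a difference of 1 is a doubling. Probes differ between genes, so levels are compared only within a gene. Genes were called at an adjusted p under 0.05 with limma and Benjamini-Hochberg adjustment over 15526 genes above a dim-signal cutoff of log2 2.99. All members passed this filter, which used the mean over all arrays. Pdgfra lay below the cutoff on 4 of 16 arrays, and no other member did on any array. Ins2 lay between 11.60 and 12.20 on these arrays, and the mean of 10 beta cell markers between 10.74 and 11.57.

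Some arrays carried high signals of other tissues. The mean of 9 acinar markers was 12.39 on lean KsJ 16-week replicate 2 and 9.62 on replicate 1. The mean of 10 intestinal markers was 9.66 on lean 6J 6-week replicate 2 and 4.35 on replicate 1, and 8.29 on db/db 16-week replicate 2 and 6.16 on replicate 1. These 3 arrays are left out together in an alternative chosen after seeing the data. The replicate 3 arrays, which may not share a scale with the other 16, also carried such signals. Their acinar mean was 11.18 for db/db and 12.19 for lean KsJ, and their intestinal mean 8.70 and 4.81. Their beta cell mean was 9.82 for db/db and 10.18 for lean KsJ, below all of the other 16 arrays. The signal of Uty, a Y-linked gene, ranged from 7.25 to 7.86 on 5 arrays, while the other 11 ranged from 2.17 to 3.60. Those 5 were replicate 1 of lean KsJ at 6 and at 16 weeks, lean 6J 6-week replicate 1 and both ob/ob arrays of 6 weeks. Lean KsJ 16-week replicate 2, both ob/ob arrays of 16 weeks and every db/db array were not among them. In ob/ob islets age therefore cannot be told apart from this split. The comparisons of ob/ob with lean 6J islets at 6 weeks and of lean KsJ with db/db islets are partly mixed with it. The part of sex in any result was not tested. The lean KsJ arrays of 16 weeks also stood apart: 44.1% of all genes tested were lower there than on the lean KsJ arrays of 6 weeks without overlap. Counts of genes at an unadjusted limma p under 0.05 are to be read against the share of all genes, which was 8.52% and 24.5% in db/db islets at 6 and 16 weeks and 6.15% and 16.6% in ob/ob islets.

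Igfbp4 was the only one of the 8 members to pass the test in any of the 12 comparisons made, and it did so in db/db islets at 16 weeks. It encodes a secreted protein that binds insulin-like growth factors and limits their action. At 16 weeks its log2 signal was 6.05 and 6.73 in db/db islets against 5.45 and 4.43 in lean KsJ islets. The db/db arrays were both above the lean ones. The db/db mean was higher by 1.45 ± 0.38 (log2 difference, SE, n = 2 arrays a group), with a 95% confidence interval from 0.63 to 2.28 and a limma adjusted p of 0.0473. This made 1 of 8 members called, against 5.8% of all genes called in this comparison, 5.32% higher and 0.477% lower. Lean KsJ 16-week replicate 2 had the lowest Igfbp4 signal of the 16 arrays, and without it the difference was 0.95 with an adjusted p of 0.201. Igfbp4 was called in 1 of the 16 fits that each left out 1 array. Without the 3 arrays with other-tissue signal the difference was 0.61, adjusted p = 0.464.

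**Figure D1:**
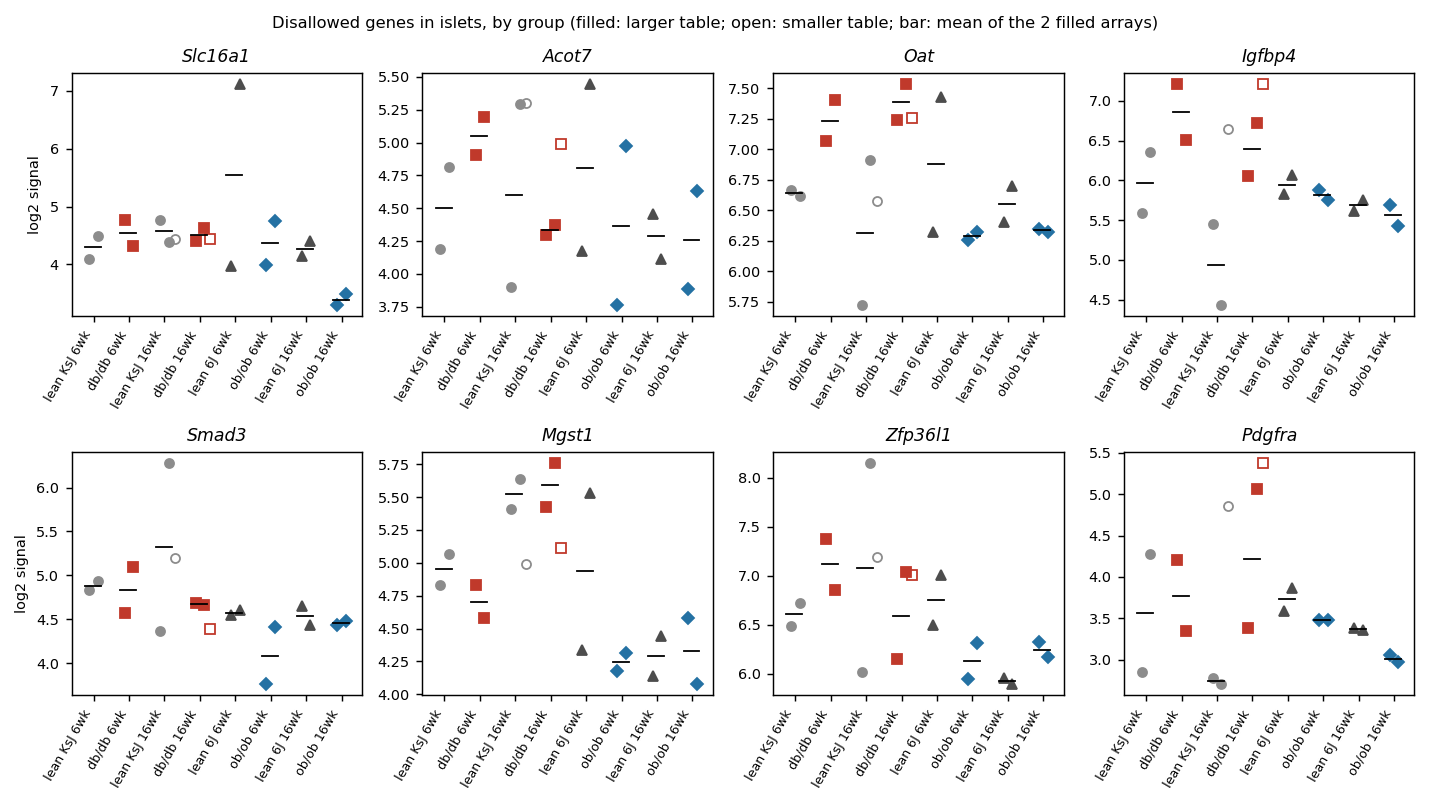
Log2 signal (vertical axis) of each of the 8 disallowed genes by group (horizontal axis), with 1 point per array and a bar at the mean of the 2 arrays of the larger table (filled points). Replicate 3 of the lean KsJ and db/db groups of 16 weeks comes from the smaller table on another array design (open points). The 4 db/db arrays of the larger table lie above the 4 lean KsJ arrays for Oat, and Slc16a1 reaches 7.12 on a single lean 6J array of 6 weeks.

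At 6 weeks Igfbp4 read 7.21 and 6.51 in db/db islets against 5.59 and 6.36 in lean KsJ islets. The arrays did not overlap, but the difference of 0.89 ± 0.38 did not pass the test (limma adjusted p = 0.573). In the 6J strain the values were 5.88 and 5.75 in ob/ob islets against 5.82 and 6.07 in lean islets at 6 weeks. They were 5.70 and 5.42 against 5.62 and 5.76 at 16 weeks. Both differences were -0.13 ± 0.38, with intervals from -0.95 to 0.69, and the arrays overlapped. In the smaller table, Igfbp4 was 7.21 on the db/db array and 6.65 on the lean KsJ array, a difference of 0.56 with no test. The lean KsJ array there was well above both lean KsJ arrays of the larger table, but the tables may not share a scale.

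Of 13 other IGF ligands, receptors, binding proteins and proteases listed, 11 were tested, and 2 rose in db/db islets at 16 weeks. Igfbp3, the main carrier of circulating IGF, rose by 2.26 ± 0.39 (limma adjusted p = 0.0178), with 9.30 and 9.19 in db/db against 7.58 and 6.39 in lean KsJ islets. Pappa2, a protease that cleaves IGF-binding proteins, rose by 2.53 ± 0.49 (limma adjusted p = 0.0222). The lean KsJ 16-week arrays were the lowest of the larger table for both genes. In ob/ob islets of 16 weeks Igfbp3 was 9.21 and 9.37, against 7.98 and 8.10 in lean 6J islets. Pappa2 was 11.25 and 10.99 there, against 9.76 on both lean 6J arrays. None of the 11 was called in db/db islets at 6 weeks or in ob/ob islets at 6 and 16 weeks. In these comparisons 2, 0 and 4 had a limma p under 0.05. In db/db islets at 16 weeks the median over these 11 genes was 0.15, against 0.18 over all genes tested.

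Pdgfra encodes the receptor for PDGF-A and marks fibroblasts and other mesenchymal cells. It was at 3.38 and 5.06 in db/db islets at 16 weeks, and at 2.78 and 2.70, below the cutoff, in lean KsJ islets. Both db/db arrays were higher, and replicate 2 stood well above replicate 1. The difference of 1.48 ± 0.52 had an interval from 0.33 to 2.63 and did not pass the test (limma adjusted p = 0.116). It was 0.64 without db/db replicate 2 and 2.32 without db/db replicate 1. At 6 weeks the db/db values were 4.21 and 3.34 and the lean KsJ values 2.85 and 4.28, so the groups overlapped, with a difference of 0.21 ± 0.52. In ob/ob islets Pdgfra was 3.48 on both arrays of 6 weeks against 3.59 and 3.86 in lean 6J islets. At 16 weeks it was 3.05 and 2.97 against 3.38 and 3.36. The ob/ob arrays were lower at both ages, by 0.25 and 0.36 on the log2 scale with an SE of 0.52, and neither difference passed. The replicate 3 pair read 5.37 for db/db and 4.85 for lean KsJ. None of the 6 PDGF ligands and receptors tested was called in any of the 4 comparisons of obese with lean islets, and 1 had a limma p under 0.05, in db/db islets at 16 weeks.

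Smad3, a transcription factor that carries TGF-beta signals to the nucleus, had a median of 4.59 over the 16 arrays. Its highest value was on lean KsJ 16-week replicate 2, the array with the highest acinar markers, at 6.28 against 4.37 on replicate 1. The db/db arrays of that age, at 4.69 and 4.67, lay between these. The difference of -0.65 ± 0.46 was not called in the fit of all arrays (limma adjusted p = 0.414). It turned to 0.31 without lean replicate 2, and was -1.60, adjusted p = 0.00247, without lean replicate 1, a fit that called 30.2% of all genes. At 6 weeks Smad3 was 4.58 and 5.10 in db/db against 4.83 and 4.94 in lean KsJ islets. In the 6J strain the 6-week values were 3.76 and 4.41 on the ob/ob arrays and 4.55 and 4.60 on the lean ones, the ob/ob arrays being lower. At 16 weeks it was 4.43 and 4.48 against 4.65 and 4.44, which overlapped. The replicate 3 arrays gave 4.39 for db/db and 5.20 for lean KsJ. Of 17 TGF-beta and SMAD genes tested, 1 rose in db/db islets at 16 weeks: Tgfbr2, the type II TGF-beta receptor, by 1.26 ± 0.28 (limma adjusted p = 0.0294). Tgfbr2 was 5.45 and 6.22 in db/db, 4.92 and 4.24 in lean KsJ and 5.81 and 5.76 in lean 6J islets of that age, and lean KsJ minus lean 6J was -1.21 (limma adjusted p = 0.0405). No gene of this list was called in the other 3 comparisons of obese with lean islets, where 4, 3 and 7 had a limma p under 0.05.

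Oat encodes ornithine aminotransferase, the mitochondrial enzyme that links ornithine with glutamate and proline. At 6 weeks it was 7.07 and 7.40 in db/db islets and 6.66 and 6.62 in lean KsJ islets. At 16 weeks it was 7.24 and 7.53 in db/db islets and 5.72 and 6.91 in lean KsJ islets. The 4 db/db arrays, at 7.07 to 7.53, therefore lay above all 4 lean KsJ arrays, at 5.72 to 6.91. Oat was the only one of the 8 members with this separation over both ages, and 6.76% of all genes tested had it in this direction. Neither difference passed the test: 0.59 ± 0.39 at 6 weeks (limma adjusted p = 0.697) and 1.07 ± 0.39 at 16 weeks (limma adjusted p = 0.121). At 16 weeks the difference was 0.47 without lean KsJ replicate 1 and 1.67 without lean KsJ replicate 2. It passed the test under median centring (1.26, adjusted p = 0.0455, with 13.0% of all genes called) and without the 3 arrays with other-tissue signal (1.52, adjusted p = 0.0468, with 0.348% called). In the smaller table Oat was 7.26 on the db/db array and 6.57 on the lean one.

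In ob/ob islets Oat was nearly constant, at 6.25 and 6.32 at 6 weeks and 6.35 and 6.32 at 16 weeks. Lean 6J islets read 6.33 and 7.43 at 6 weeks and 6.40 and 6.70 at 16 weeks. The ob/ob arrays were lower at both ages, with differences of -0.59 ± 0.39 and -0.22 ± 0.39 that did not pass, and the value of 7.43 came from the lean array with high intestinal markers. Without that array the 6-week difference was -0.04. Of 11 genes of ornithine and proline metabolism tested, 2 rose in db/db islets at 16 weeks. They were Arg1, which makes ornithine from arginine (1.44 ± 0.31, limma adjusted p = 0.0285), and Got1, a cytosolic aspartate aminotransferase (1.03 ± 0.23, limma adjusted p = 0.0327). Arg1 was 6.64 and 5.84 in lean KsJ islets of 16 weeks, below the 7.11 and 7.12 of 6 weeks, and differed from lean 6J islets of 16 weeks by -1.26 (limma adjusted p = 0.0466). None of the 11 was called in the other 3 comparisons, with 0, 3 and 4 at a limma p under 0.05.

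Slc16a1 differed most between arrays in a single group. Lean 6J islets of 6 weeks read 3.97 and 7.12, and the other 15 arrays read at most 4.77. In lean KsJ islets it was 4.1 and 4.50 at 6 weeks and 4.77 and 4.40 at 16 weeks. The db/db values of 4.77 and 4.31, then 4.41 and 4.63, overlapped these. The differences were 0.25 ± 0.72 at 6 weeks and -0.07 ± 0.72 at 16 weeks, and the interval at 16 weeks ran from -1.65 to 1.51. Both replicate 3 arrays were listed at 4.43. In ob/ob islets Slc16a1 was 4.0 and 4.75 at 6 weeks and 3.29 and 3.49 at 16 weeks, and lean 6J islets of 16 weeks had 4.15 and 4.40. The ob/ob arrays of 16 weeks were the lowest of all 16 arrays. Their difference of -0.89 ± 0.72 did not pass the test (limma adjusted p = 0.586), though it did when these groups were fitted alone (adjusted p = 0.0418), a fit that called 8.33% of all genes. The 6-week ob/ob difference of -1.16 ± 0.72 turned to 0.41 without lean 6J replicate 2, and was -2.74, adjusted p = 0.00183, without lean 6J replicate 1, where 2.07% of all genes were called.

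Ldha, the lactate dehydrogenase subunit that is another well-known disallowed gene, was also high on lean 6J 6-week replicate 2, at 5.69 against 3.12 on replicate 1. Ldha was not called in any of the 4 comparisons of obese with lean islets, with differences of 0.28, 0.25, -1.16 and 0.33 and an SE of 0.70. Bsg, the chaperone that brings MCT1 to the cell surface, differed by 0.41 ± 0.16 in db/db islets at 16 weeks (limma adjusted p = 0.139). Of 13 genes of lactate and pyruvate handling tested, none was called in these 4 comparisons by limma, and 0, 2, 0 and 1 had an unadjusted p under 0.05.

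Acot7, an acyl-CoA thioesterase, was 4.90 and 5.20 in db/db islets of 6 weeks and 4.19 and 4.81 in lean KsJ islets. These did not overlap, but the difference of 0.55 ± 0.54 did not pass. At 16 weeks it was 4.29 and 4.37 in db/db islets, between the lean KsJ values of 3.90 and 5.29. The ob/ob values, 3.76 and 4.98 at 6 weeks and 3.89 and 4.63 at 16 weeks, overlapped the lean 6J values of 4.17 and 5.44 and of 4.46 and 4.11. The lean KsJ replicates of 16 weeks lay further apart than any obese and lean group means, whose largest difference was 0.55 in size. The replicate 3 arrays read 4.99 for db/db and 5.30 for lean KsJ. None of 10 acyl-CoA thioesterases tested was called by limma in these 4 comparisons, with 0, 3, 0 and 1 at a p under 0.05.

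Mgst1, a membrane-bound glutathione transferase, had its largest difference between the lean strains. At 16 weeks it was 5.41 and 5.64 in lean KsJ islets, 5.42 and 5.76 in db/db islets, 4.14 and 4.44 in lean 6J islets and 4.58 and 4.08 in ob/ob islets. Both lean KsJ arrays lay above both lean 6J arrays at this age, a separation that 11.2% of all genes tested had. Lean KsJ exceeded lean 6J by 1.23 ± 0.33, which missed the threshold (limma adjusted p = 0.0579) and passed it with a filter at the 50th percentile (adjusted p = 0.0398, 10.3% of all genes called) or with both tables joined (1.22, adjusted p = 0.0353, 7.66% called). Strain cannot be told apart here from anything else that differed between the KsJ and 6J arrays. At 6 weeks Mgst1 was 4.83 and 5.07 in lean KsJ, 4.83 and 4.58 in db/db, 4.34 and 5.53 in lean 6J and 4.18 and 4.31 in ob/ob islets. Obese minus lean differences were -0.25 and 0.07 in the KsJ strain, and -0.69 and 0.04 in the 6J strain, with an SE of 0.33. Mgst1 was higher in db/db islets of 16 than of 6 weeks by 0.89 ± 0.33, which did not pass (limma adjusted p = 0.539). The replicate 3 arrays read 5.11 for db/db and 4.99 for lean KsJ. Of 12 glutathione enzymes tested, 1 rose in db/db islets at 16 weeks, namely Gclc, the catalytic subunit of glutathione synthesis, by 0.68 ± 0.14 (limma adjusted p = 0.0277).

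Zfp36l1, an RNA-binding protein that promotes decay of messages with AU-rich elements, was highest on the same array, lean KsJ 16-week replicate 2, at 8.15 against 6.01 on replicate 1. The db/db arrays of 16 weeks, at 6.14 and 7.04, lay between them. The difference of -0.49 ± 0.54 was not called (limma adjusted p = 0.610), turned to 0.58 without lean replicate 2 and was -1.55, adjusted p = 0.0108, in the same fit without lean replicate 1. At 6 weeks it was 7.37 and 6.86 in db/db against 6.49 and 6.73 in lean KsJ islets, a difference of 0.51 ± 0.54 without overlap. In the 6J strain the 6-week values were 5.94 and 6.31 on the ob/ob arrays and 6.50 and 7.0 on the lean ones, and the 16-week values were 6.32 and 6.17 and, for lean, 5.96 and 5.89. The ob/ob arrays were thus lower at 6 weeks and higher at 16 weeks, with differences of -0.62 and 0.32 that did not pass. The replicate 3 arrays read 7.01 for db/db and 7.19 for lean KsJ. A second, dimmer cluster of Zfp36l1, with a mean of 3.34, was also highest on lean KsJ 16-week replicate 2. None of 9 other genes of the Zfp36 family and its targets was called in the 4 comparisons, with 1, 1, 0 and 3 at a limma p under 0.05.

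**Figure D2:**
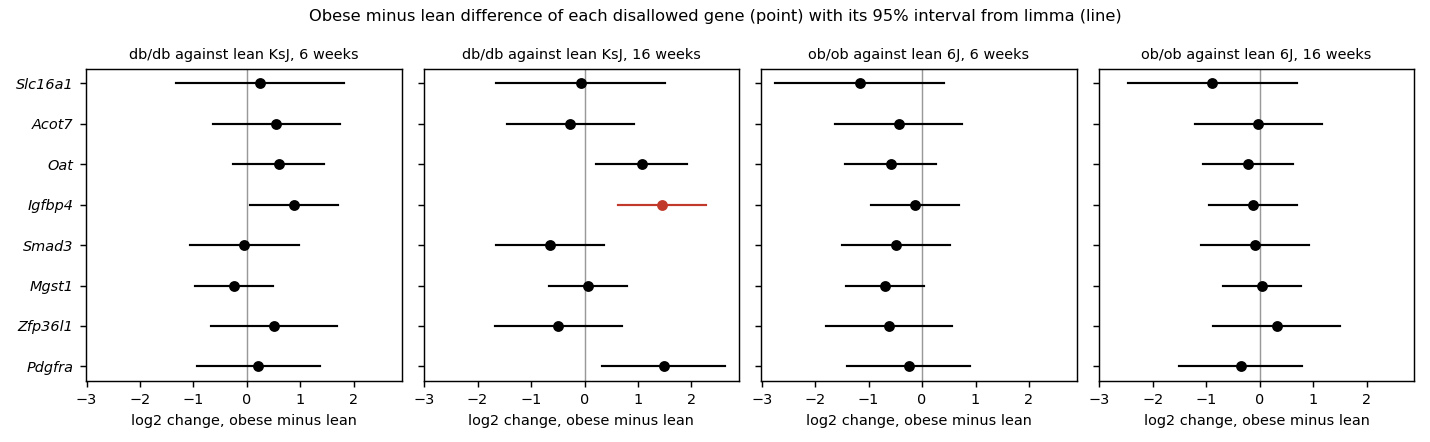
Log2 difference of obese minus lean islets (horizontal axis) for each of the 8 disallowed genes (vertical axis), with 95% confidence intervals from limma, in db/db and ob/ob islets at 6 and 16 weeks. Igfbp4 in db/db islets at 16 weeks, at 1.45, is the one called difference, in red. All 8 ob/ob differences of 6 weeks are negative here, where 49.6% of all genes tested had a positive difference. Without lean 6J replicate 2 Slc16a1 is at 0.41 and Acot7 at 0.19.

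Over the 8 members, none was called in db/db islets at 6 weeks, where 0.0258% of all genes were called and 1 member had a limma p under 0.05. None was called in ob/ob islets at 6 weeks, where 0% of genes were called, or at 16 weeks, where 0.0708% were called, and no member had a limma p under 0.05 there. In db/db islets at 6 weeks 4 members had higher arrays without overlap (background 21.9%) and 1 lower (27.9%). At 16 weeks 3 members were higher without overlap (32.8%) and none was lower (10.4%). In ob/ob islets at 6 weeks 5 members were lower without overlap (16.8%) and none higher (19.9%). At 16 weeks 3 were lower (33.3%) and 1 higher (28.2%). The median of the members was -0.54 in ob/ob islets at 6 weeks against 0.00 for all genes tested, and was -0.066 without the lean array with high intestinal markers. At 16 weeks in db/db islets it was 0.00 against 0.18, and 0.50 against 0.16 without lean KsJ replicate 2.

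The longer catalogue of disallowed genes gave no call. Of 23 others listed, 22 had a cluster of their own and 20 were tested, and none passed in any of the 4 comparisons of obese with lean islets. The counts at an unadjusted limma p under 0.05 were 1 and 3 in db/db islets and 3 and 2 in ob/ob islets, at 6 and 16 weeks. Their medians were 0.19, -0.01, -0.54 and -0.02 in the same order, against -0.02, 0.18, -0.003 and -0.03 over all genes tested. The mean of the 22 genes was 5.51 on lean 6J 6-week replicate 2, the array with the highest intestinal markers, and 4.85 on replicate 1. It was 4.66 and 4.77 on the ob/ob arrays of 6 weeks. Hk1, a low-Km hexokinase, read 4.36 and 4.87 on the 6-week ob/ob arrays and 5.29 and 5.38 on the lean 6J ones, a difference of -0.72 ± 0.25 that did not pass (limma adjusted p = 0.791). It was -0.65 ± 0.25 at 16 weeks (adjusted p = 0.232). The differences of Cxcl12, Maf, Rest and Slc16a3 did not pass either. None of 26 tested genes of the silencing machinery was called in these comparisons of obese with lean islets, with 2, 1, 0 and 11 at an unadjusted p under 0.05. Between the lean strains at 16 weeks 2 of them were called lower in lean KsJ islets, where 4.12% of all genes were called. These were Cbx7, by -1.78 ± 0.28 (limma adjusted p = 0.0141), and Kdm6a, by -1.14 ± 0.28 (limma adjusted p = 0.0486). Dnmt3a, the de novo DNA methyltransferase reported to act on disallowed genes, had its lowest group mean in ob/ob islets of 16 weeks, with a difference of -0.88 ± 0.24 from lean 6J (limma adjusted p = 0.129).

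The db/db and ob/ob effects were compared directly as a difference of differences. None of the 8 members passed at either age, where 0% and 0.0129% of all genes were called. At 6 weeks no member had an unadjusted p under 0.05, all 8 estimates were positive, from 0.44 to 1.41, and Oat had the smallest p (1.18 ± 0.54, limma adjusted p = 1.0). Over all genes tested 45.0% of these estimates were positive at 6 weeks. Without lean 6J replicate 2 of that age Slc16a1 was -0.16 and Mgst1 -0.15 and the members' median 0.39. Without lean KsJ replicate 1 of that age Pdgfra was -0.25. At 16 weeks 3 members had a limma p under 0.05, as did 15.6% of all genes: Igfbp4 at 1.58 ± 0.53 (adjusted p = 0.234), Pdgfra at 1.84 ± 0.74 (adjusted p = 0.284) and Oat at 1.29 ± 0.54 (adjusted p = 0.303). Taking both ages together, the 4 db/db arrays lay above the 4 ob/ob arrays for Oat, Igfbp4 and Smad3, a separation that 3.57% of genes tested had. For Igfbp4 these were 6.05 to 7.21 against 5.42 to 5.88. This comparison also differs in strain, and both ob/ob arrays of 6 weeks had the high Uty signal that no db/db array had. Effects in opposite directions, without overlap in either model, were seen for Oat and Zfp36l1 at 6 weeks, where 3.41% of all genes had them, and for Oat and Pdgfra at 16 weeks, where 9.04% had them.

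With age, no member passed in any of the 4 groups, where 0%, 0.0644%, 0% and 0% of all genes were called in lean KsJ, db/db, lean 6J and ob/ob islets. The members with an unadjusted limma p under 0.05 numbered 1, 1, 0 and 0, against 26.3%, 7.61%, 2.87% and 3.9% of all genes. Igfbp4 was lower in lean KsJ islets of 16 than of 6 weeks by -1.04 ± 0.38 (limma adjusted p = 0.131). Between the lean strains no member passed at 6 weeks (0.258% of genes called) or at 16 weeks (4.12%), and 0 and 1 had an unadjusted p under 0.05, against 6.65% and 29.5% of all genes.

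Igfbp4 and Pdgfra moved together across arrays and with mesenchymal markers. Over 16 arrays the Pearson correlation of Igfbp4 with Pdgfra was 0.79. With the mean of 12 mesenchymal and stellate cell markers it was 0.83 for Igfbp4, 0.86 for Pdgfra and 0.62 for Oat, and 0.73, 0.75 and 0.74 over the 13 arrays left without the 3 named above. Oat correlated more with the intestinal mean over 16 arrays, at 0.70, and at 0.55 over 13. With duct markers Oat was at 0.60 over 16 arrays and 0.48 over 13, and with macrophage markers at 0.38 and 0.64. Igfbp4 was at 0.69 and 0.47 with endothelial markers, and at 0.66 and 0.28 with macrophage markers. Pdgfra was at 0.54 and 0.33 with macrophage markers. The mean of the mesenchymal list was 5.99 to 7.02 in db/db islets at 16 weeks and 4.83 to 4.97 in lean KsJ islets, without overlap. Its collagen genes Col1a1 and Col3a1 rose by 2.90 ± 0.34 and 2.83 ± 0.27 in that comparison (limma adjusted p = 0.00768 and 0.00220). The 2 lean KsJ arrays of 16 weeks in the larger table were low for this list. Its median difference was -1.08 for lean KsJ at 16 against 6 weeks, with 0 of 12 positive. For lean KsJ against lean 6J at 16 weeks it was -0.93, with Col3a1 and Postn called lower. For db/db islets at 16 against 6 weeks it was 0.05. On the replicate 3 arrays the mesenchymal mean was 6.27 for lean KsJ and 7.32 for db/db, but the tables may not share a scale. Of the mesenchymal markers 5 of 12 were called higher in db/db than in lean KsJ islets at 16 weeks. So were 2 of 8 endothelial and 3 of 8 macrophage markers, and 5.32% of all genes. Cdh5 differed by 1.19 and C1qa by 1.12. For lean KsJ at 16 against 6 weeks the endothelial median was -0.90 and the macrophage median -0.75, each with 0 of 8 positive. For db/db islets at these ages they were -0.44, with 0 of 8 positive, and 0.48, with 7 of 8. C1qa was also called lower in lean KsJ than in lean 6J islets at 16 weeks (-1.11, limma adjusted p = 0.0158). Of 10 beta cell markers tested 1 was called in db/db against lean KsJ islets at 16 weeks. This was Mafa, a transcription factor, which fell by 1.26 ± 0.32 (limma adjusted p = 0.0473). Of the 10 differences 5 were positive, and the median was -0.005. The part of these cells in the differences of Igfbp4, Pdgfra and Oat was not tested. These correlations describe arrays that share groups, and no p is given.

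**Figure D3:**
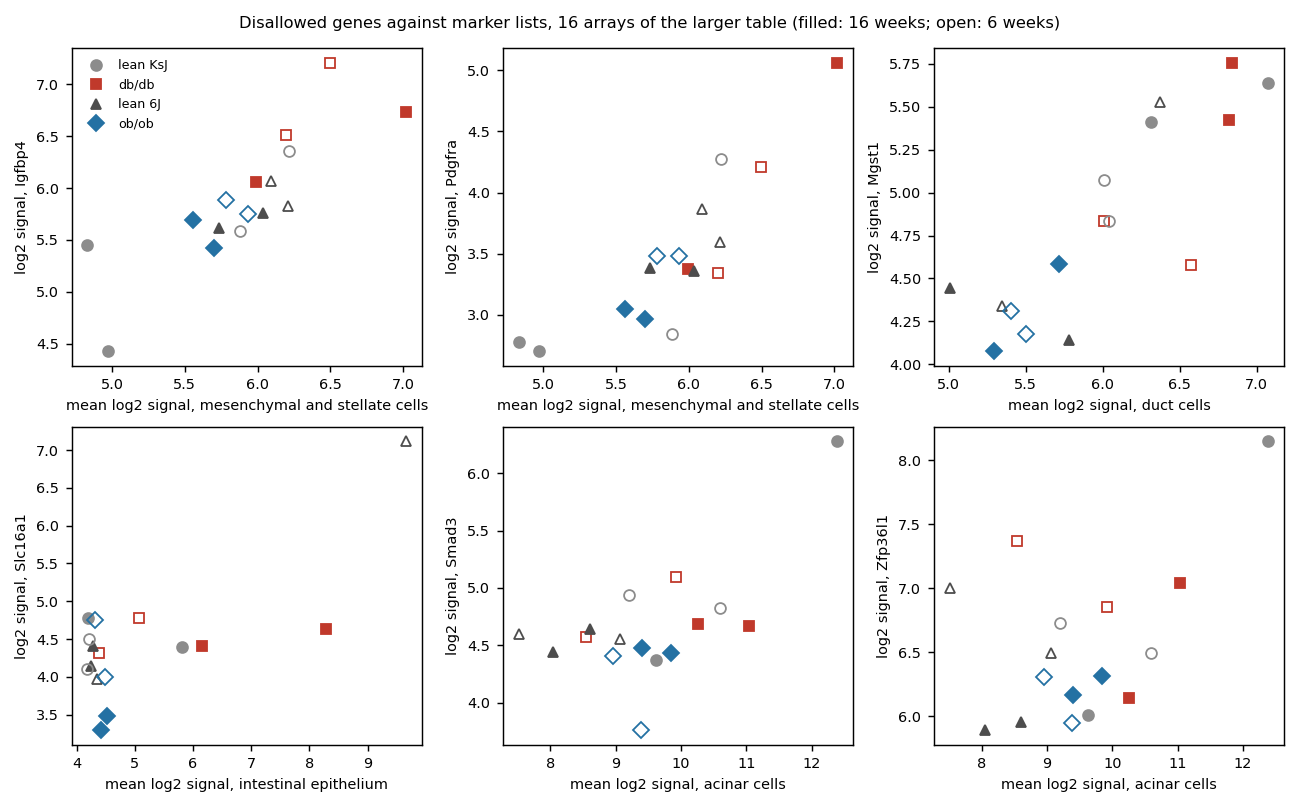
Log2 signals of members (vertical axes) against the mean log2 signal of marker lists of other cell types (horizontal axes), with 1 point per array of the larger table, coloured by genotype, filled at 16 weeks and open at 6 weeks. Igfbp4 and Pdgfra are higher on arrays with a higher mesenchymal mean (r = 0.83 and 0.86), and Slc16a1 is highest on the array with the highest intestinal mean.

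Other members moved with markers of other tissues. Slc16a1 correlated with the mean of 10 intestinal markers at 0.73 over 16 arrays and at 0.12 over 13. Mgst1 correlated with the mean of 7 duct markers at 0.84 and 0.75, and those markers were 6.82 to 6.84 in db/db and 6.31 to 7.08 in lean KsJ islets at 16 weeks against 5.01 to 5.78 in lean 6J islets. Smad3 correlated with acinar markers at 0.62 and 0.25, and Zfp36l1 at 0.45 and 0.03. With duct markers the values were 0.62 and 0.51 for Smad3 and 0.63 and 0.32 for Zfp36l1. With mesenchymal markers they were -0.22 and 0.38 for Smad3 and 0.11 and 0.65 for Zfp36l1. With endothelial markers they were -0.62 and 0.19 for Smad3 and -0.39 and 0.62 for Zfp36l1. Smad3 and Zfp36l1 correlated with each other at 0.77. The part of these tissues in the values was not tested.

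The genes most alike each member across the 16 arrays, by Pearson correlation of log2 signals, were Slc52a3 (0.94) and Coro2a (0.93) for Slc16a1, and Ap1g2 (0.82) and Tnni1 (0.81) for Acot7. They were Rnf152 (0.87) and Lhpp (0.86) for Oat, H1f10 and Id1 (both 0.90) for Igfbp4, and Tle6 (0.92) and Cdc42ep1 (0.90) for Smad3. They were Il15 and Slc28a3 (both 0.86) for Mgst1, Pde2a (0.92) and Cdc42ep1 (0.88) for Zfp36l1, and Col1a1 and Lum (both 0.84) for Pdgfra. For Pdgfra both are matrix genes of fibroblasts and lie on the mesenchymal list.

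**Figure D4:**
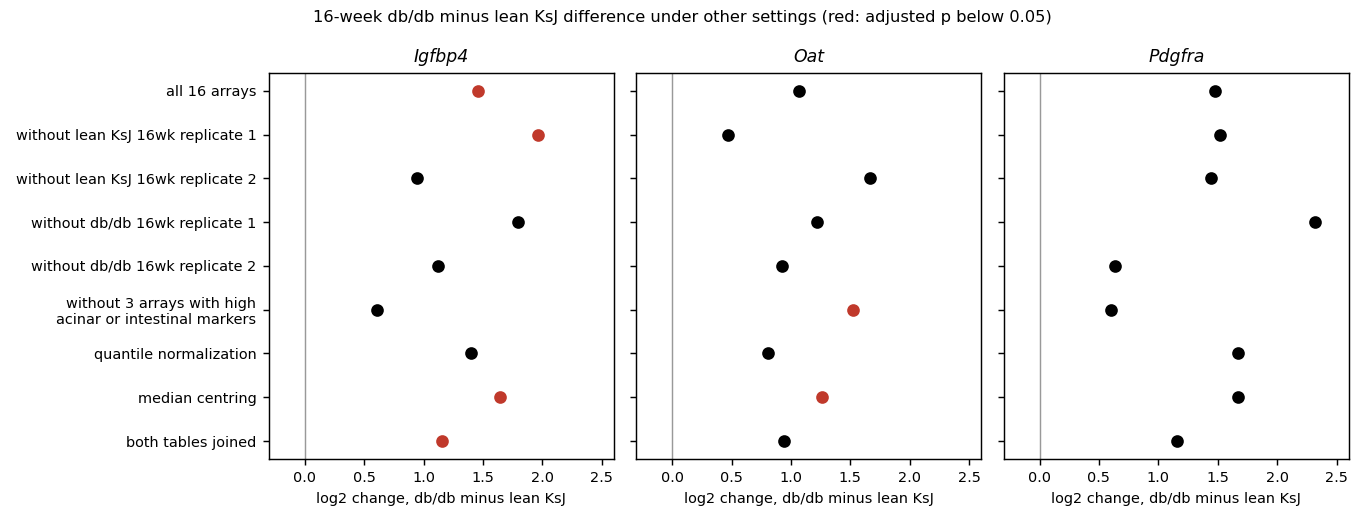
Log2 difference of db/db minus lean KsJ islets at 16 weeks (horizontal axis) for Oat, Igfbp4 and Pdgfra under the main and other settings (vertical axis), with those called at an adjusted p under 0.05 in red. The difference is positive in every setting shown. Igfbp4 ranges from 0.61 without the 3 arrays of high other-tissue markers to 1.96 without lean KsJ replicate 1.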

How the data were processed

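Islet RNA was hybridised to Affymetrix Mouse Gene ST arrays. The authors deposited log2 signals per transcript cluster. Partek, RMA and MAS5 appear in the submitters' processing notes with no version or role given, and the background correction is not given in the sources used here. Each of 2 tables held 41034 clusters. They were not joined in the main analysis, because array designs differ and medians lay at 3.51 to 3.83 and at 3.91 to 4.10.

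The platform annotation gave 1 gene for 23521 clusters, several for 1814 and no row for 15699, and only the first were used. Symbols were updated through Entrez IDs with the GRCm38.p6 gene table. Genes with a mean below the 30th percentile were not tested. A limma fit (version 3.58.1, R 4.3.3) had 1 mean per group over 16 arrays, 8 residual degrees of freedom and empirical Bayes moderation. The tests were two-sided and adjusted over 15526 genes. The small number of arrays limits precision.

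Named genes were the 8 members, up to 3 called genes per list with the smallest p in a comparison, 10 fixed genes, and the 2 genes most alike each member. Uty, and the 3 arrays left out together, were chosen after values were seen. The members and lists were chosen with earlier results of these data known. The fit was tested on simulated data. Alternatives covered the filter, normalization, cluster summary, variance model, array weights, compared groups alone, joined tables, and leaving out arrays. Figures used matplotlib 3.10.9.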

Additional observations from a re-analysis of the deposited data

Results flagged for a closer look

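In 4 cases every db/db array lay on one side of its lean KsJ controls and every ob/ob array on the opposite side of its lean 6J controls. Over all genes tested, 3.41% showed such opposite effects at 6 weeks and 9.04% at 16 weeks. The ob/ob side was narrow for Oat at 6 weeks, with ob/ob replicate 2 at 6.321 and lean 6J replicate 1 at 6.325. Without lean 6J replicate 2, which had high intestinal markers, that ob/ob difference was -0.04. For Oat the db/db effect minus the ob/ob effect was 1.18 at 6 weeks (SE 0.54, limma adjusted p = 1.0) and 1.29 at 16 weeks (SE 0.54, limma adjusted p = 0.303). Zfp36l1 had a difference of 1.13 at 6 weeks (SE 0.76, limma adjusted p = 1.0). Pdgfra had a difference of 1.84 at 16 weeks (SE 0.74, limma adjusted p = 0.284). The difference itself did not pass the adjusted test in any of these 4 cases.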

How the results depend on the processing

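Precision is limited by 2 arrays a group, and dim signals limit Pdgfra most. No paired analysis was possible because the replicate numbers follow accession order and the labels give the groups no shared replicate numbers. Besides single arrays left out, 433 of 460 values kept their direction and side of the threshold, and 17 reversed. Of the 816 values with a single array left out, 758 kept both and 31 reversed. Many of these values could not change direction. Leaving out an array outside the compared groups leaves the difference as it was. So, in practice, do the filter, the variance model, array weights and the compared groups alone. The counts therefore overstate how stable the directions are.

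The count of members called in db/db islets at 16 weeks was 1 and became 0 with no filter, quantile normalization, array weights or the compared groups alone, where the adjusted p of Igfbp4 was 0.0574, 0.0903, 0.447 and 0.484, and 2 with median centring. It stayed at 1 without the 3 arrays, with Oat called in place of Igfbp4. The count became 1 for ob/ob at 16 weeks with the compared groups alone (8.33% of all genes called), and 1 between lean strains at 16 weeks with the 50th percentile filter (10.3%) or joined tables (7.66%). All genes called in db/db at 16 weeks numbered 900, and 283 with quantile normalization, 2011 with median centring, 0 with array weights, 6 with the compared groups alone, 2084 with joined tables and 54 without the 3 arrays.

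Quantile normalization reversed Smad3 in db/db at 6 weeks (0.0071), Mgst1 in db/db at 16 weeks (-0.15), Acot7 (0.10) and Smad3 (0.049) in ob/ob at 16 weeks, and Mgst1 in the db/db minus ob/ob effect at 16 weeks (-0.30). Median centring reversed Slc16a1 in db/db (0.12) and Acot7 in ob/ob (0.027) at 16 weeks. Leaving out the 3 arrays, chosen after seeing the data, reversed Acot7 (0.39), Smad3 (0.32) and Zfp36l1 (0.13) in db/db at 16 weeks, Slc16a1 (0.41) and Acot7 (0.19) in ob/ob at 6 weeks, Slc16a1 (-0.16) and Mgst1 (-0.15) in the effect difference at 6 weeks, and Acot7 (0.41), Smad3 (0.40) and Mgst1 (-0.022) in that at 16 weeks. None of these values was called, and the cause was not tested.

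With 1 array left out at a time, the number of members called ranged from 0 to 3 in db/db at 16 weeks, in the effect difference at 16 weeks and for age in lean KsJ, from 0 to 1 in the effect difference at 6 weeks, for age in lean 6J and between lean strains at 6 weeks, from 0 to 4 between lean strains at 16 weeks, and from 0 to 2 in ob/ob at 6 weeks. The highest counts came without lean KsJ 16-week replicate 1, where 30.2% of all genes were called in db/db at 16 weeks, 24.0% in the effect difference, 35.3% for age in lean KsJ and 37.4% between lean strains, or without lean 6J 6-week replicate 1, where 2.07% were called in ob/ob at 6 weeks. In db/db at 16 weeks the ranges were -0.26 to 0.12 for Slc16a1, -0.96 to 0.43 for Acot7, -1.60 to 0.31 for Smad3, -0.10 to 0.23 for Mgst1, -1.55 to 0.58 for Zfp36l1, 0.95 to 1.96 for Igfbp4 and 0.64 to 2.32 for Pdgfra. In db/db at 6 weeks they were -0.50 to 0.93 for Pdgfra and -0.31 to 0.21 for Smad3. In ob/ob at 6 weeks they were -2.74 to 0.41 for Slc16a1 and -1.07 to 0.19 for Acot7, and at 16 weeks -0.40 to 0.35 for Acot7, -0.19 to 0.019 for Smad3, -0.21 to 0.29 for Mgst1 and -0.27 to 0.0066 for Igfbp4. In the effect difference at 6 weeks they were -0.16 to 2.98 for Slc16a1, -0.15 to 1.04 for Mgst1 and -0.25 to 1.18 for Pdgfra, and at 16 weeks -0.93 to 0.45 for Acot7, -1.52 to 0.39 for Smad3, -0.22 to 0.28 for Mgst1 and -1.87 to 0.26 for Zfp36l1. In each comparison that used lean 6J islets of 6 weeks, more of all genes were called without replicate 1 than with all arrays. The member calls there are to be read against that rise. A group left with 1 array is assumed to vary like the others, and calls in these fits rest on that assumption.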

Other observations

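Slc16a1 was listed at the same value, 4.43, on both arrays of the smaller table, and 258 of the 15526 genes tested had identical values on the 2 arrays. The mean of the 8 members was highest on lean 6J 6-week replicate 2, at 5.88, which was also the array with the highest intestinal markers. The mean of the other disallowed genes on that array was 5.51. It was higher on lean KsJ 16-week replicate 2, at 5.53, and on the replicate 3 arrays, at 5.73 for db/db and 5.60 for lean KsJ.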
